A study of Mus musculus with 4 samples.

Results

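Acy1 and the adjacent genes Abhd14a and Abhd14b, 3 of the 28443 genes in the count table, were followed in RANKL-stimulated bone marrow-derived macrophages (BMDMs) with and without MYC. Acy1 was picked because it fell furthest among the aminoacylase genes when MYC-deficient cells were set against control cells, and the other two because they lie next to it. The fold changes of the 3 genes were therefore part of how they were chosen, and they are given below as a description without a test. BMDMs are macrophages grown from bone marrow, and RANKL is the cytokine that starts their differentiation into osteoclasts, the cells that resorb bone. Marrow came from mice aged 8 weeks, and the cells received M-CSF and 50 ng/ml of RANKL for 1 day before RNA was collected. Control cells (MYC-WT, 2 libraries) carried LysM cre alone, and MYC-deficient cells (2 libraries) carried LysM cre with the floxed MYC allele, so both genotypes carried the Cre recombinase driven by the myeloid lysozyme gene. The libraries are described as biological replicates, but the sources used here do not say whether each came from a separate animal, so p-values measure only the spread between these libraries, which may be partly technical.

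Aminoacylase 1, the product of Acy1, is a zinc-dependent enzyme of the cytosol that splits N-acetylated amino acids into acetate and a free amino acid. Such N-acetylated amino acids arise when proteins that were acetylated at their N terminus are broken down, and they accumulate in the urine of people with inherited aminoacylase 1 deficiency. Abhd14a and Abhd14b encode members of the α/β hydrolase domain (ABHD) family, which holds lipases, thioesterases and other hydrolases. Human ABHD14B has been described as a lysine deacetylase that moves the acetyl group to coenzyme A, while the substrate of ABHD14A is not established. In the human genome annotation, a read-through transcript joins ABHD14A to ACY1.

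The 3 genes lie side by side on mouse chromosome 9 (mm10). Acy1 (ENSMUSG00000023262) occupies chr9:106432981-106438319 on the minus strand. Abhd14a (ENSMUSG00000042210) occupies chr9:106440051-106447678, also on the minus strand, and its 3′ end is separated from the start of Acy1 by 1731 bp. Abhd14b (ENSMUSG00000042073) occupies chr9:106447459-106452923 on the plus strand. Abhd14a and Abhd14b are thus arranged head to head, and their annotated spans overlap by 220 bp, of which 207 bp are exonic in both genes (9.81% of the exonic bases of Abhd14a and 7.75% of those of Abhd14b in GENCODE M21). The sources used here do not say whether reads were counted by strand, and reads of those 207 bp may thus be counted for either gene. GENCODE M21 also lists an antisense gene, Gm28959, inside Abhd14b, and it has no row in the count table.

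The promoters of the 3 genes are shown because the MYC-MAX dimer is known to bind the E-box CACGTG, and because each gene has its own annotated start. Each window from RefSeq (GRCm38.p6) runs 5′ to 3′ in the direction of transcription, and holds 250 bases before the annotated start and 50 bases from it on, so that the start is base 251 of 300. Capitals mark the E-box CACGTG, which was searched on both strands together with the related CACGCG. The windows are chr9:106438187-106438486 (minus strand) for Acy1, chr9:106447629-106447928 (minus strand) for Abhd14a and chr9:106448390-106448689 (plus strand) for Abhd14b. The RefSeq start is not always the outermost start in the count table: it coincides for Abhd14a, but lies 83 bp inside the span of Acy1 and 1181 bp inside that of Abhd14b. The Abhd14b window is therefore set at a start 962 bp from that of Abhd14a, and does not cover the overlap of the 2 genes.
Acy1: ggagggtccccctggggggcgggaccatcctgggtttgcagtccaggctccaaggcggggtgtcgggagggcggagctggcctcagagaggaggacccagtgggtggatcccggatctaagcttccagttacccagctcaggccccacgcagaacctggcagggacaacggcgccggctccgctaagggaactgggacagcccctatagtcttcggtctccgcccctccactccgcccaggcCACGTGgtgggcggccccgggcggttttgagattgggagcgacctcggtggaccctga
Abhd14a: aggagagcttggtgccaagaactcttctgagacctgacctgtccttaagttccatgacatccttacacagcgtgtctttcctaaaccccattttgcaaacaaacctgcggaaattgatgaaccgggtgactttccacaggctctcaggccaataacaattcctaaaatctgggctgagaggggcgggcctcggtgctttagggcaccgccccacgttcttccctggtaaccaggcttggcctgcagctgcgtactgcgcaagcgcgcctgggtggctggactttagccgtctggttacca
Abhd14b: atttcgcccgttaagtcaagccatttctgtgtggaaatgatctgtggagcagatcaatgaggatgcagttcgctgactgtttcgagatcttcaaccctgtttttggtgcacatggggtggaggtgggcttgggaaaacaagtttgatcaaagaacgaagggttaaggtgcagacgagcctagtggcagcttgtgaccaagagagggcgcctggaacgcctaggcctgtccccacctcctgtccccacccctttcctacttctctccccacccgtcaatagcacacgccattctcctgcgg

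The Acy1 window held 1 CACGTG, at bases 243 to 248, which leaves 2 bases between the motif and the RefSeq start and places the motif inside the longer span of Acy1 in the count table. Neither of these motifs occurred in the windows of Abhd14a and Abhd14b. Among the 22 genes listed within 250 kb of the 3 genes, 17 had a window, and Acy1 was the 1 gene of these with CACGTG. Rpl29 and Pcbp4, the nearest tested genes on either side of the 3, had no window and were not searched. That E-box was found in 7.15% of all 32851 promoter windows and in 9.95% of the 12528 windows of genes tested here. The motif was in 15.5% of the windows of genes called lower in MYC-deficient cells, in 9.47% of those of genes not called and in 7.88% of those of genes called higher. A match is a run of letters and not a measured binding site, and windows without a match are not informative about MYC binding elsewhere in the locus. The Acy1 window was also the richest of the 3 in GC (68.3%, with 19 CpG dinucleotides), against 54.7% and 12 CpG for Abhd14a and 53.7% and 11 CpG for Abhd14b. The median over all windows was 52.7% GC and 7 CpG.

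The libraries held 27544806 to 35794698 counts. Myc had 7656 and 7284 counts in MYC-WT against 633 and 667 in MYC-deficient libraries (log2 fold change −3.49, SE 0.20, adjusted p = 0.00711 by edgeR's quasi-likelihood test). Macrophage markers were high in every library, with a summed level of 3190 and 2780 CPM (counts scaled to library size) in MYC-WT against 5060 and 4830 CPM in MYC-deficient cells, and 4 of the 6 passed the test as higher. The 7 early osteoclast markers summed to 1220 and 1890 CPM in MYC-WT against 728 and 991 CPM in MYC-deficient cells. Of these markers, 3 passed as lower, where 9.91% of all tested genes passed as lower and 6.06% as higher. Acp5 (log2 fold change −1.40) and Ctsk (−1.51) were lower without passing. Tnfrsf11a was near 0 (−0.06), and Dcstamp was higher without passing (0.37). Neutrophil markers summed to 84.5 and 40.6 CPM against 240 and 114 CPM (1 of 7 tested passed as higher), and dendritic cell markers to 1.97 and 1.24 CPM against 5.93 and 6.62 CPM (2 of 4 higher). Markers of B cells, T cells and fibroblasts summed to at most 0.923, 0.028 and 5.29 CPM in any library, and the T cell markers Cd3d and Cd3e were at 0. The 5.29 CPM of fibroblast markers was in MYC-deficient replicate 1, and the other libraries had at most 0.275. The macrophage, osteoclast, neutrophil and dendritic cell marker levels moved with genotype alongside the values below, and their part in them was not tested. In bulk RNA, fewer cells of a type and less RNA per cell cannot be told apart.

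Acy1 was far lower in MYC-deficient cells. The counts per library were 1321 and 1659 in MYC-WT against 64 and 98 in MYC-deficient libraries. After scaling by the trimmed mean of M values (TMM), these correspond to 38.9 and 57.1 CPM in MYC-WT and to 1.79 and 3.63 CPM in MYC-deficient cells. The lowest MYC-WT library was far above the highest MYC-deficient library, and the groups did not overlap. The mean level was 48.0 ± 12.9 CPM in MYC-WT and 2.71 ± 1.30 CPM in MYC-deficient cells (SD, n = 2 each), and the fitted log2 fold change was −4.17 (SE 0.39), 18.0-fold lower. The MYC-deficient mean was 5.64% of the MYC-WT mean. Ranked by log2 fold change among the 13436 genes with enough counts to be tested, Acy1 was the 8th lowest. Per kb of exon, the level of Acy1 lay at percentile 75.0 of tested genes in MYC-WT and at percentile 21.7 in MYC-deficient cells.

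The remaining Acy1 signal in MYC-deficient cells was above zero and differed between the replicates. The 64 and 98 counts gave exact Poisson 95% intervals of 1.38 to 2.29 CPM and 2.94 to 4.42 CPM, which cover counting error only and do not overlap. Replicate 2 exceeded replicate 1 by 2.03 times in MYC-deficient cells and by 1.47 times in MYC-WT cells. The fold change of Acy1 therefore depended on the library left out. Without MYC-deficient replicate 2 the log2 fold change was −4.75, and without MYC-deficient replicate 1 it was −3.70.

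Abhd14a, the upstream neighbour on the same strand, was also lower in MYC-deficient cells, by a smaller factor. Its counts were 399 and 388 in MYC-WT against 70 and 63 in MYC-deficient libraries, or 11.7 and 13.4 CPM against 1.96 and 2.33 CPM. The replicates lay close together and the groups did not overlap. The means were 12.6 ± 1.14 CPM and 2.14 ± 0.264 CPM (SD, n = 2 each), with a log2 fold change of −2.55 (SE 0.21), 5.86-fold lower. The MYC-deficient mean was 17.1% of the MYC-WT mean. The Poisson intervals of the MYC-deficient libraries, 1.53 to 2.47 CPM and 1.79 to 2.98 CPM, overlapped each other. Abhd14a ranked 65 from the lowest log2 fold change.

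Abhd14b, on the opposite strand and head to head with Abhd14a, had levels that overlapped between the genotypes. Its counts were 211 and 250 in MYC-WT against 187 and 197 in MYC-deficient libraries, or 6.21 and 8.61 CPM against 5.23 and 7.29 CPM. The second MYC-deficient library was above the first MYC-WT library, so the groups overlapped. The means were 7.41 ± 1.69 CPM and 6.26 ± 1.45 CPM (SD, n = 2 each), with a log2 fold change of −0.24 (SE 0.27) and rank 4385. The MYC-deficient mean was 84.5% of the MYC-WT mean. The log2 fold change was 0.01 without MYC-WT replicate 2 and also 0.01 without MYC-deficient replicate 1.

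By the thresholds used in the study for calling a gene (adjusted p under 0.05 and fold change over 1.5), 2 of the 3 genes, Acy1 and Abhd14a, were called lower, where 9.91% of all tested genes were called lower and 6.06% higher. The genes were chosen on this contrast, so nothing is read from that count. All 4 libraries gave 1331 lower and 814 higher calls over all genes, and fewer genes passed with either MYC-WT library left out. The spread was then estimated from the MYC-deficient pair alone, and its part in the lower counts was not tested. The median log2 fold change of all tested genes was −0.012.

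**Figure D1:**
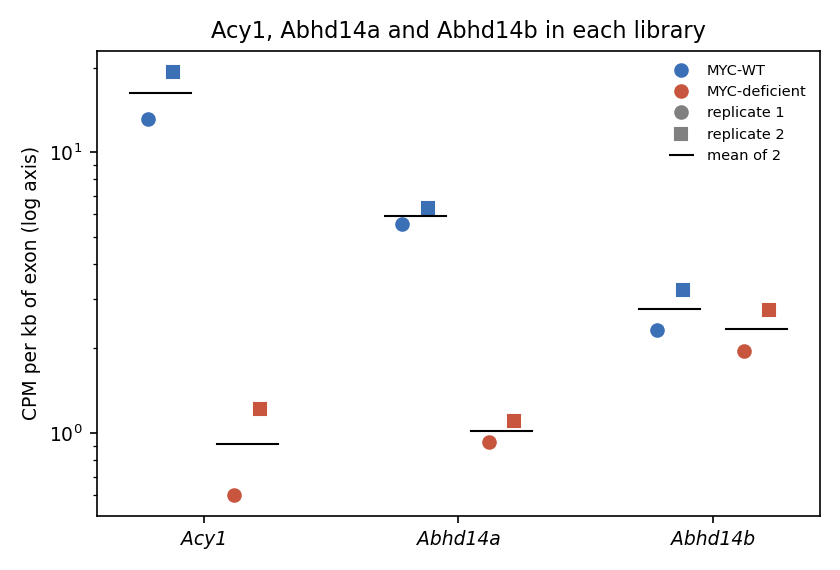
Level of Acy1, Abhd14a and Abhd14b in each library, as CPM per kb of annotated exon on a log axis, with circles for replicate 1, squares for replicate 2 and a line at the mean of the 2 libraries. Acy1 and Abhd14a are separated by genotype, with Acy1 at 13.1 and 19.3 in MYC-WT against 0.604 and 1.22 in MYC-deficient cells, while the Abhd14b points overlap.

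To compare levels between genes, CPM were divided by the length of annotated exon in kb (Acy1 2966 bp, Abhd14a 2111 bp, Abhd14b 2671 bp). In MYC-WT cells the order was Acy1 at 16.2 ± 4.35, Abhd14a at 5.95 ± 0.541 and Abhd14b at 2.77 ± 0.635 CPM per kb (SD, n = 2 each), and no library of one gene reached into the range of the next. In MYC-deficient cells Abhd14b had the highest level, at 2.34 ± 0.545 CPM per kb. Abhd14a at 1.02 ± 0.125 and Acy1 at 0.913 ± 0.438 CPM per kb followed. Acy1 and Abhd14a did not differ beyond their spread, since the Acy1 libraries at 0.604 and 1.22 CPM per kb enclosed the Abhd14a libraries at 0.928 and 1.10 CPM per kb. The gene with the highest level of the 3 in control cells thus had a level in MYC-deficient cells that could not be separated from that of Abhd14a.

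Ratios of counts within a library need no scaling between libraries, and they show the same unequal change. The ratio of Acy1 to Abhd14a counts was 3.31 and 4.28 in MYC-WT against 0.914 and 1.56 in MYC-deficient libraries, a 3.15-fold difference (log2 difference −1.66). Both genes had fallen, so this ratio measures how much further Acy1 fell than its neighbour on the same strand. The ratio of Acy1 to Abhd14b counts was 6.26 and 6.64 in MYC-WT against 0.342 and 0.497 in MYC-deficient libraries, a 15.6-fold difference (log2 difference −3.97). The ratio of Abhd14a to Abhd14b counts, the head-to-head pair, was 1.89 and 1.55 against 0.374 and 0.320, a 4.95-fold difference (log2 difference −2.31). The MYC-WT and MYC-deficient libraries did not overlap for any of the 3 ratios. The ratios share genes that were chosen on this contrast, so nothing is read from that. With the libraries left out in turn, the log2 difference of the Acy1 to Abhd14a ratio ranged from −2.04 (without MYC-deficient replicate 2) to −1.27 (without MYC-deficient replicate 1), and that of Acy1 to Abhd14b from −4.24 to −3.70.

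**Figure D2:**
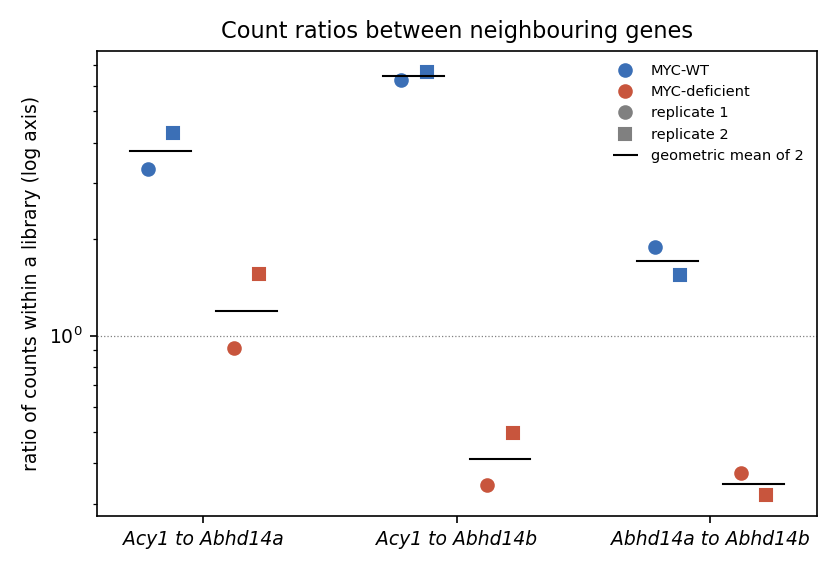
Ratio of counts between members of each gene pair within each library, on a log axis, with circles for replicate 1, squares for replicate 2, a line at the geometric mean and a dotted line at equal counts. Each ratio is lower in both MYC-deficient libraries than in both MYC-WT libraries, and the ratio to Abhd14b is below 1 in the MYC-deficient libraries for both Acy1 and Abhd14a.

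Whether the lower level extended further along the chromosome was examined in the other genes whose span lies in or touches the 250 kb on each side of the 3 genes. Of 19 such genes, 2 (Iqcf5 and Grm2) had no counts in any library, 3 more had too few to be tested, and 14 were tested. These genes were chosen by position alone. By edgeR, 2 of the 14 (14.3%) passed as lower, against 9.91% of all tested genes, and 0 passed as higher. At an unadjusted p under 0.05 with no fold threshold there were 4 lower and 2 higher. The share over all genes was not counted, so nothing is read from these 2 counts. DESeq2 called 2 lower and 2 higher, beside 1304 lower and 1089 higher of 12133 genes in all. With limma, 2 were lower and 1 higher, beside 1156 and 864 of 11109 genes. The median log2 fold change of the 14 genes was −0.02, and 7 were negative.

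The 2 genes that passed start 8.9 kb (Rpl29) and 37.6 kb (Rrp9) from the start of Acy1, on either side, and Pcbp4 at 15 kb and Parp3 at 38.6 kb did not pass. Rpl29, which encodes a protein of the large ribosomal subunit, ends 1412 bp from the 3′ end of Acy1 on the opposite strand. Its counts were 7797 and 9516 in MYC-WT against 3986 and 3709 in MYC-deficient libraries, and the level fell from 279 ± 69.4 to 124 ± 18.2 CPM (SD, n = 2 each; log2 fold change −1.16, SE 0.21, edgeR adjusted p = 0.0226). Ribosomal protein genes have many processed copies in the genome, so that the Rpl29 counts are uncertain to that extent. Rrp9, which encodes a protein of the U3 small nucleolar RNP that acts in ribosomal RNA processing, had 1486 and 1800 counts in MYC-WT against 616 and 631 in MYC-deficient libraries. Its level fell from 52.9 ± 12.9 to 20.3 ± 4.32 CPM (log2 fold change −1.38, SE 0.23, edgeR adjusted p = 0.0195). Without MYC-WT replicate 2 the log2 fold change was −0.88 for Rpl29 and −1.11 for Rrp9. Neither gene passed in that fit, where fewer genes passed over all genes as well.

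The other tested genes around the 3 did not pass. Pcbp4, the nearest gene on the other side, which encodes a poly(C)-binding protein, starts 367 bp after Abhd14b on the same strand. It had 234 and 221 counts in MYC-WT against 179 and 140 in MYC-deficient libraries (log2 fold change −0.51, SE 0.19, edgeR adjusted p = 0.116). Parp3, which encodes an ADP-ribosyltransferase, shares its start region head to head with Rrp9, with 987 bp of overlapping span. Parp3 had 1731 and 1719 counts in MYC-WT against 1843 and 1618 in MYC-deficient libraries, with a log2 fold change of 0.02 (SE 0.14, edgeR adjusted p = 0.944). A head-to-head pair with 1 gene lower and the other near 0 on the log2 scale was thus seen at both Abhd14a with Abhd14b and Rrp9 with Parp3. This was common: over all tested genes, 256 pairs with starts within 1 kb on opposite strands had at least 1 gene lower. In 239 of these the other gene did not pass. The 12 genes that did not pass ranged in log2 fold change from −0.94 (Gm29123) to 1.38 (Tlr9, a receptor for unmethylated CpG DNA, SE 0.46, edgeR adjusted p = 0.0937). Dusp7 (log2 fold change 0.57, edgeR adjusted p = 0.0276) and Wdr82 (−0.40, edgeR adjusted p = 0.0425) were under the fold threshold, and Dusp7 and Tlr9 were the 2 genes that DESeq2 called higher. Tlr9, Dusp7, Wdr82 and Gm29123 were picked out after their values were seen.

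**Figure D3:**
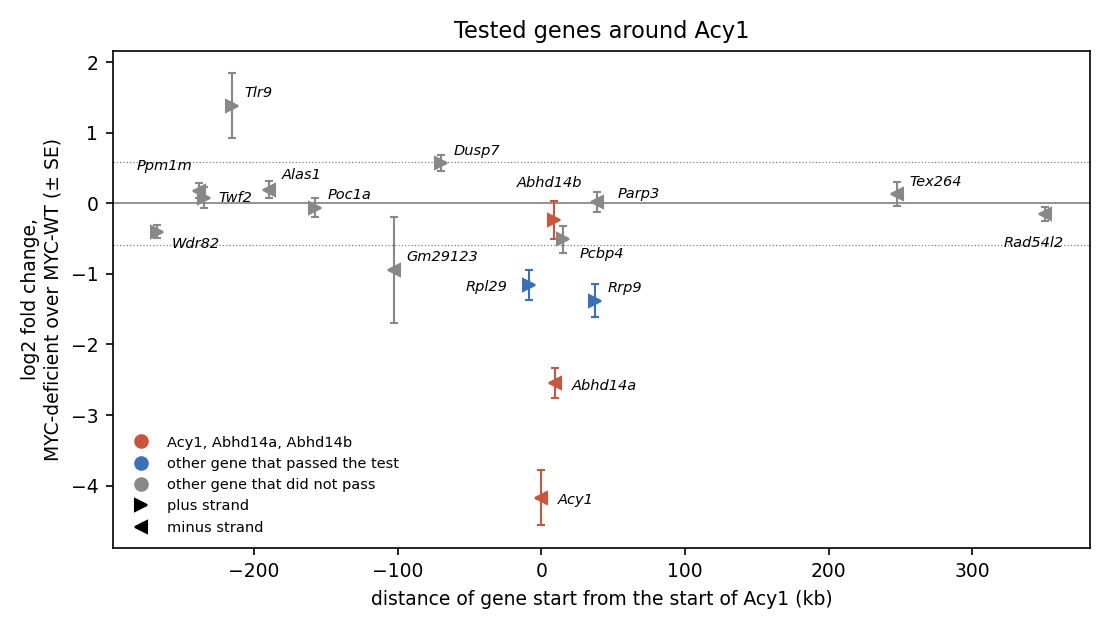
Log2 fold change (MYC-deficient over MYC-WT, bars ± SE of the edgeR fit) of the 17 tested genes whose span touches the 250 kb on each side, against the distance of each gene's transcription start from that of Acy1 in kb. Triangles point in the direction of transcription, dotted lines mark a 1.5-fold change, and the low points near 0 kb are Acy1 at −4.17, Abhd14a at −2.55, Rrp9 at −1.38 and Rpl29 at −1.16.

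The genes whose values over the 4 libraries were most like those of Acy1 were found by the Euclidean distance between log2 CPM centred on each gene's mean. Among the nearest were Zfp365 (distance 0.75), Myc (0.81), Pla2g5 (1.11) and Dctd (1.13). Pla2g5, which encodes a secreted phospholipase, had 102 and 143 counts in MYC-WT against 7 and 3 in MYC-deficient libraries. Zfp365 had a log2 fold change of −3.58, and Dctd, which encodes deoxycytidylate deaminase, of −3.11. Abhd14a was at a distance of 1.76, rank 27 of 13435 genes, and Abhd14b at 3.95, rank 3714. The 4 points behind each distance are 2 libraries of each genotype, and Acy1 itself was chosen on this contrast.

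Apart from Cndp2, the other listed enzymes related to Acy1 had few or no counts in these cells. Of the 6 other aminoacylases and M20 peptidases, Pm20d2 and Cndp1 had no counts, Aspa (aspartoacylase) had 1 count over all libraries, and Acy3 and Pm20d1 had at most 12 and 7 counts in any library. Cndp2, a cytosolic dipeptidase, was the 1 other gene tested, with 330 ± 7.78 CPM in MYC-WT and 386 ± 29.3 CPM in MYC-deficient cells (SD, n = 2 each). Its log2 fold change was 0.23 (SE 0.12, edgeR adjusted p = 0.226). Thus 0 of 1 passed by edgeR, and also 0 at an unadjusted p under 0.05, by DESeq2 and by limma. Acy1 and Cndp2 were thus the genes of the list with more than 12 counts in any library.

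N-terminal acetyltransferases make the acetylated proteins whose breakdown yields the substrates of aminoacylase 1. The list of N-terminal acetylation holds 14 tested genes, among them Nat8l (log2 fold change 0.77) and Apeh, which do not acetylate protein N termini. Of the 14, 3 (21.4%) passed as lower and 0 as higher by edgeR, against 9.91% and 6.06% of all genes. The median log2 fold change was −0.27 and 11 were negative. At an unadjusted p under 0.05 with no fold threshold there were 7 lower and 0 higher. The share over all genes was not counted, so nothing is read from these 2 counts. DESeq2 and limma each called 3 lower and 0 higher. Over all genes, DESeq2 called 1304 lower and 1089 higher of 12133, and limma 1156 and 864 of 11109. The 3 were Naa25 (log2 fold change −1.36, edgeR adjusted p = 0.00768), the auxiliary subunit of the NatB acetyltransferase, and Naa10 (−1.40, 0.00876) and Naa15 (−0.78, 0.0139), the catalytic and auxiliary subunits of NatA. Naa10 (log2 fold change −1.28) and Naa15 (−0.84) missed without MYC-WT replicate 2, and Naa15 (−0.71) also missed without MYC-WT replicate 1. Fewer genes passed over all genes in both of these fits. Apeh, the acylpeptide hydrolase that releases N-acetylated amino acids from peptides, the substrates of aminoacylase 1, had 2288 and 2049 counts in MYC-WT against 2437 and 1965 in MYC-deficient libraries (log2 fold change 0.03, edgeR adjusted p = 0.86).

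Among 24 tested aminopeptidases and related peptidases, 3 (12.5%) passed as lower and 1 (4.17%) as higher, beside 9.91% and 6.06% of all tested genes. The median log2 fold change was −0.12. Thop1 (log2 fold change −1.59, edgeR adjusted p = 0.00794), Lap3 (−1.25, 0.011) and Metap2 (−0.71, 0.0166) fell, and Anpep (0.60, 0.0455), the surface aminopeptidase CD13, rose. Thop1 cleaves short peptides in the cytosol, Lap3 is leucine aminopeptidase, and Metap2 removes the initiator methionine. Lap3 (log2 fold change −1.15), Metap2 (−0.65) and Anpep (0.65) missed without MYC-WT replicate 2. Metap2 (−0.78) and Anpep (0.56) missed without MYC-WT replicate 1. Fewer genes passed over all genes in both of these fits. Anpep also missed without MYC-deficient replicate 2 (log2 fold change 0.43) and, at 0.57, with scaling by total counts alone.

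Most listed members of the ABHD family did not pass the test. Of the 16 tested members other than Abhd14a and Abhd14b, 13 did not pass, 1 (6.25%) passed as lower and 2 (12.5%) as higher, beside 9.91% and 6.06% of all tested genes, and the median log2 fold change was 0.07. Abhd11, a mitochondrial member, fell (log2 fold change −1.67, edgeR adjusted p = 0.0127), and Abhd12 (0.70, 0.0219), a lysophosphatidylserine lipase, and Abhd2 (0.67, 0.0272), a monoacylglycerol lipase, rose. Abhd11 missed without MYC-WT replicate 2 (log2 fold change −1.51). Abhd12 missed with replicate 1 (0.75) or replicate 2 (0.66) of MYC-WT left out. Without MYC-deficient replicate 2, Abhd12 fell under the fold threshold (0.58). Abhd2 missed without each of the same libraries (0.65, 0.70 and 0.52). With either MYC-WT library left out, fewer genes passed over all genes.

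**Figure D4:**
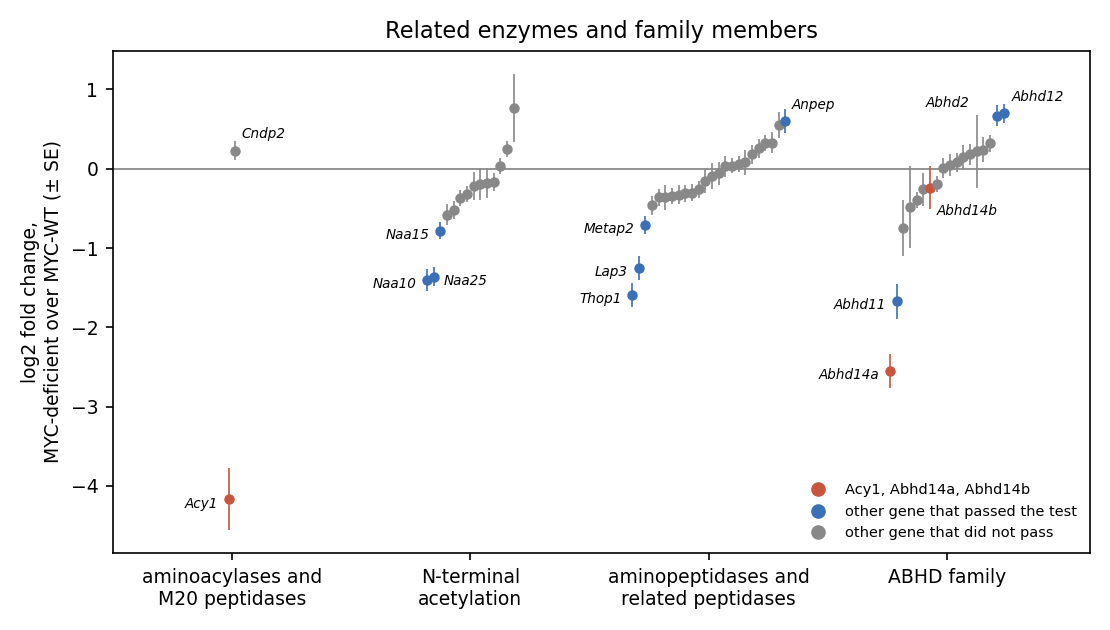
Log2 fold change (MYC-deficient over MYC-WT, bars ± SE of the edgeR fit) of each tested gene in 4 groups, ordered within a group from lowest to highest, with Acy1, Abhd14a and Abhd14b in red and other genes that passed in blue. Acy1 at −4.17 and Abhd14a at −2.55 are the lowest points, and Thop1 at −1.59 and Abhd11 at −1.67 are the lowest of the other genes.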

How the data were processed

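RNA-seq was run on 4 libraries, 2 per genotype. The authors deposited whole-number counts per gene for 28443 genes, and log2 CPM for the 11109 genes they kept. With mm10 as the build, STAR 2.7.3a, edgeR, fastp and bcl2fastq 1.8.4 are listed in the submitters' processing notes. The sources used here name no counting tool, strand setting or annotation release. No reads were analysed. Counts were fitted in R 4.3.3 with edgeR 4.0.16 (TMM scaling, filterByExpr with min.count 10 and min.total.count 15, quasi-likelihood test, Benjamini-Hochberg adjustment over 13436 genes, 2 groups without a batch term). CPM in the text are TMM-scaled, and exon lengths come from GENCODE M21. The authors' log2 CPM entered limma-trend (limma 3.58.1) as an alternative, beside DESeq2 1.42.0. The edgeR fit and the calling of genes, and no other step, were tested on simulated counts. The 3 genes and the lists were chosen with earlier results of these data known. Named genes are the 3 genes, the nearest tested gene on each side, each locus gene that passed, up to 4 genes of each list per direction by smallest adjusted p, each aminoacylase, Myc and the 5 genes most like Acy1, of which 1 is not reported here, and others are named where the text says so.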

Additional observations from a re-analysis of the deposited data

How the results depend on the processing

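Left out in turn, the libraries moved the log2 fold change of Acy1 between −4.75 and −3.70, of Abhd14a between −2.68 and −2.40 and of Abhd14b between −0.50 and 0.01. Other scalings, filters and tools gave −4.20 to −4.13, −2.58 to −2.51 and −0.27 to −0.21. The count of other locus genes that passed was 2 in the edgeR fit used above, 4 with DESeq2 and 4 with no fold threshold. It also changed with a library left out. List counts with a library left out ranged from 1 to 3 for N-terminal acetylation, 1 to 4 for aminopeptidases and 0 to 3 for the ABHD family. No result changed direction past its threshold. The causes were not tested. Over all genes, 1331 lower and 814 higher passed in the edgeR fit used above, which is not the study's own fit. With no filter on low counts, 1797 and 1385 passed, and fewer passed with either MYC-WT library left out. The SE of 0.27 for Abhd14b was derived from the log2 fold change and the F statistic of edgeR's test. That test moderates the spread between 2 libraries per genotype over all tested genes. Changes of the size of this SE cannot be told from that spread.

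Replicates of 1 number are not stated to share an animal or day. With the replicate number as a block, the replicate block fit gave log2 fold changes of −4.19 for Acy1, −2.55 for Abhd14a and −0.24 for Abhd14b, and 3 other locus genes passed. It called 1774 genes lower and 1400 higher. The deviations of same-numbered libraries correlated at 0.499.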

Other observations

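The arrangement seen at Abhd14a and Abhd14b, a pair with starts close together on opposite strands of which 1 gene was lower, was counted over all tested genes, of which 9.91% were called lower. Of 1213 pairs of tested genes with starts within 1 kb on opposite strands, 256 had at least 1 gene called lower. In 239 of these the other gene did not pass, in 16 (6.25%) both were lower, and in 1 pair the other gene was higher. Of the 132 pairs whose minus-strand gene was lower, the plus-strand gene was also lower in 16. Of 726 pairs on the same strand with at most 2 kb between the end of the first gene and the start of the second, as for Abhd14a and Acy1, 146 had at least 1 gene called lower and 12 (8.22%) had both. Of the 86 pairs whose upstream gene was lower, the downstream gene was also lower in 12. The 6.25% and 8.22% are shares of pairs with at least 1 gene lower, and they are not comparable with the 9.91% of single genes. The pairs of the Acy1 locus are among those counted, and no test was made, nor were these shares set against those of unrelated pairs.

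The related motif CACGCG was found in 9.27% of all promoter windows and in 24.1%, 16.2% and 12.1% of the windows of genes called lower, not called and called higher. It was in the windows of 4 of the 17 locus genes that had one, and in none of Acy1, Abhd14a, Abhd14b and Rrp9.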
